A study of Rattus norvegicus with 24 samples.

Results

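Livers of male Wistar rats that had eaten a 5% protein diet for 4 weeks were compared with livers of rats that had eaten a 20% protein diet for 1 week. The members were the 12 arrays titled with these diets and times, 6 rats in each group and 1 array per rat, of 24 arrays in all. The other 12 arrays, 6 rats on 20% protein for 4 weeks and 6 on 5% protein for 1 week, served as side groups. Diet and time both differ between the groups compared. The comparison therefore asks which genes sat at the early well-fed level after long protein shortage and which had left it, and it cannot by itself tell diet from time. No transgene, mutation or drug is named in the labels, and the rats' age at the start is not given in the sources used here.

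The diets and times are those of the sample titles. The description codes hold 4 and 18 where the titles say 5 and 20, and the design text speaks of 4 weeks only. The deposited values were RMA intensities of 29214 probe sets on the unlogged scale, from 3.27 to 15793. Each gene was represented by 1 probe set, which gave 17245 genes, and all levels here are log2 intensities. Array medians lay between 42.4 and 45.5, and arrays of a group correlated at 0.984 to 0.995 across genes. Nothing in the labels says whether rats shared a cage or litter, so p-values measure the spread between these rats only.

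The animal numbers fall into runs, and the groups compared share none. The rats on 5% protein for 4 weeks were numbers 22, 23, 26, 31, 32 and 59. Those on 20% protein for 1 week were numbers 51 to 53 and 77 to 79. Well rows were not shared either, so diet, time, run and row cannot be told apart here. The early group was itself not uniform: rats 77 to 79 had 528 genes higher and 823 lower than rats 51 to 53 (limma, adjusted p below 0.05). For gene lists, and for many single genes whose call or size depends on it, values are given against both sets of 3 rats, here with rats 22 to 32 as the low-protein side. Rat 53 stood apart in Cyp2c11, Car3, Scd, Spink1l and Grb10.

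Hepatocytes switch on part of their adult programme after weaning. In male rats this includes genes that read the pulsed male pattern of growth hormone, such as the cytochrome P450 Cyp2c11 and the major urinary proteins, while female-type genes such as Cyp2c12 are shut down. A shortage of amino acids is sensed in the same cells by the kinase GCN2, which slows translation and raises the transcription factor ATF4. ATF4 in turn drives genes for amino acid import, amino acid synthesis and stress, and the liver hormone FGF21.

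The long low-protein liver differed from the early well-fed liver in a minority of genes. Of all genes, 1606 were higher (9.31%) and 1937 lower (11.2%) at an adjusted p below 0.05 (limma, Benjamini-Hochberg), and 573 (3.32%) and 791 (4.59%) of these differed by at least 1.5-fold. A gene was said to stay at the early level only where the whole 95% confidence interval of its difference lay within 1.5-fold, 0.585 on the log2 scale. This held for 13211 genes (76.6%). The 6 animals of one group lay wholly above or below the 6 of the other in 1505 genes (8.73%). The median difference over all genes was 0.01 on the log2 scale. The shares of 9.31% higher, 11.2% lower and 8.73% without overlap are the background for every list count below.

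Fewer genes differed with time on the adequate diet. The rats on 20% protein for 4 weeks shared no run of animal numbers and no well row with the early rats either. Time, run and row therefore cannot be told apart in this contrast. Between the separate sets of early rats, at the same diet and time, 528 genes were higher and 823 lower. A rise, fall or change with time below means the difference between these groups. Between 1 and 4 weeks on 20% protein, 176 genes rose (1.02%) and 259 fell (1.5%), and 14715 (85.3%) were held within 1.5-fold. The genes that moved by at least 1.5-fold numbered 95 up (0.551%) and 122 down (0.707%). The question was where each of these 217 genes stood after 4 weeks on 5% protein. Both contrasts use the same 6 early rats, so the counts that follow are a description with no test.

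Of the 217 genes, 56 (25.8%) stayed within 1.5-fold of the early level, 46 (21.2%) had moved in the direction they take on 20% protein, 41 (18.9%) had moved the opposite way, and 74 (34.1%) were not settled by these intervals. The 95 genes that rise with time divided into 27, 12, 22 and 34. Those that fall, 122 in number, divided into 29, 34, 19 and 40. The share that stayed is below the 76.6% of all genes. These genes were chosen for a change against the same early rats, and how far that choice lowers the share was not tested. The size of the share that stayed also depended on the arrays used. Without rat 29 of the 20% 4 week group, 87 of 270 such genes stayed, and with time measured against rats 51 to 53 and low protein against rats 77 to 79, which shares no early rat, 144 of 613 stayed (23.5%). The reverse pairing gave 145 of 437 (33.2%). Of the 56 genes, 26 and 29 were among those that stayed in these pairings. The other shares moved more: in the same pairings 27 and 33 genes had moved the same way, and 233 and 99 the opposite way. With rats 51 to 53 as the only early rats, 164 of 552 had moved the same way and 47 the opposite way. With rats 77 to 79 only, these were 178 and 33 of 420.

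**Figure D1:**
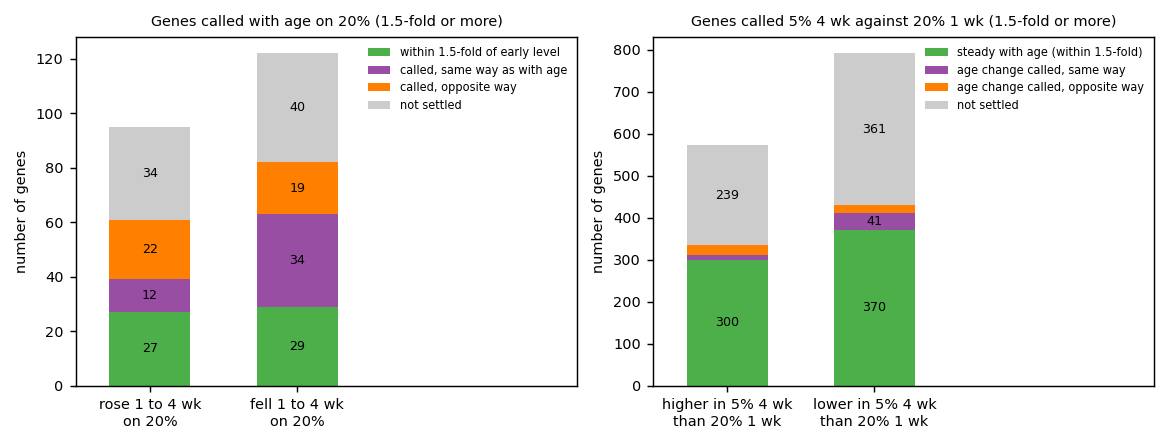
Numbers of genes (y axis) that changed by at least 1.5-fold between 1 and 4 weeks on 20% protein, split by where they stood after 4 weeks on 5% protein (left), and of genes that changed between the groups compared, split by what they do with time on 20% protein (right). Green marks 27 and 29 genes that stayed at the early level, and 300 and 370 genes that left it while steady on 20% protein.

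The clearest gene that stayed was Mup5, a major urinary protein, a class of male-biased pheromone carriers made by the liver. It lay at 3.01 to 3.63 in the early rats (median 3.21), at 2.95 to 3.79 after 4 weeks on 5% protein (median 3.27) and at 3.14 to 3.53 after 1 week on it. On 20% protein for 4 weeks all 6 rats lay between 7.82 and 9.06. Both low-protein groups thus overlapped the early rats and none reached the level of the older well-fed rats. The log2 difference between the groups compared was 0.06 (95% interval -0.29 to 0.41), beside a rise of 4.95 ± 0.17 (SE) with time. Urinary protein genes are near-identical copies of each other, so this probe set may report more than one of them, and a value this low may be at the array's floor.

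Further genes that rise with time were also at the early level after 4 weeks on 5% protein. Sult1c2al1, named as a sulfotransferase, had a median of 2.77 in the early rats, 2.71 after 4 weeks on 5% protein and 6.07 after 4 weeks on 20%. For AKR1C3l1, named as an aldo-keto reductase, these medians were 7.35, 7.5 and 9.79. It was lower in the rats on 5% protein for 1 week, at a median of 6.14 (log2 difference -1.20, adjusted p = 0.00152). Those are other rats than the ones at 4 weeks, so its course within a rat is not known. Ncam2, a neural cell adhesion molecule, Znf57l, a zinc finger gene, and Loxl4, a lysyl oxidase of the matrix, rose by 1.77, 1.70 and 1.65 on 20% protein and differed by 0.02, -0.06 and 0.14 between the groups compared. Loxl4 lay near the bound, with an interval reaching 0.563, and was at -0.27 against rats 51 to 53 and 0.53 against rats 77 to 79, neither called.

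Egfr, the receptor for epidermal growth factor and a gene known to depend on growth hormone in liver, belonged to the same set. The early rats lay at 9.51 to 10.45 (median 10.32), the rats on 5% protein for 4 weeks at 9.67 to 10.55 (median 9.86), and those on 20% for 4 weeks at 10.98 to 11.55. All older well-fed rats were above every rat of the groups compared, which overlapped each other. The difference was -0.21 (interval -0.56 to 0.14), against a rise of 1.11 ± 0.17 with time. Of the 27 rising genes that stayed, 5 had an early mean in the lowest 25% of all genes, below 4.31, where a fall could hardly show. Mup5, Sult1c2al1 and Ncam2 are among these 5.

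Genes that normally fall with time also stayed up. Abcc5, an exporter of cyclic nucleotides and other organic anions, lay at 7.19 to 8.25 in the early rats and at 7.39 to 8.52 after 4 weeks on 5% protein, while the older well-fed rats were all lower, at 6.26 to 6.83. After 1 week on 5% protein it was higher than in the early rats, at 8.38 to 9.32 (log2 difference 0.99, adjusted p = 0.00612). Gss, glutathione synthetase, had a median of 9.97 in the early rats, 10.01 after 4 weeks on 5% protein and 8.96 after 4 weeks on 20%. One older well-fed rat reached 9.91, inside the range of the early rats. Cbr1, a carbonyl reductase, Nt5dc2, Mcrip2 and Acsf2, an acyl-CoA synthetase family member, fell by 1.11, 1.24, 0.97 and 0.91 on 20% protein and differed by at most 0.12 between the groups compared. Acsf2 was 0.60 higher against rats 51 to 53 (adjusted p = 0.0172), so its place in the set rests on which early rats are used.

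At 1 week on 5% protein 41 of the 56 genes were within 1.5-fold of the same early rats and 4 were called. Over all 17245 genes, 14616 were within 1.5-fold there, 321 were higher (1.86%) and 420 lower (2.44%). Against the 20% 4 week rats, 55 of them were called, where the background was 2308 genes higher (13.4%) and 2147 lower (12.4%). The rule that chose them fixes much of that last count. The bound of 1.5-fold passed between Pmm1, whose interval reached 0.575, and Pla2g4c, whose interval reached 0.587.

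**Figure D2:**
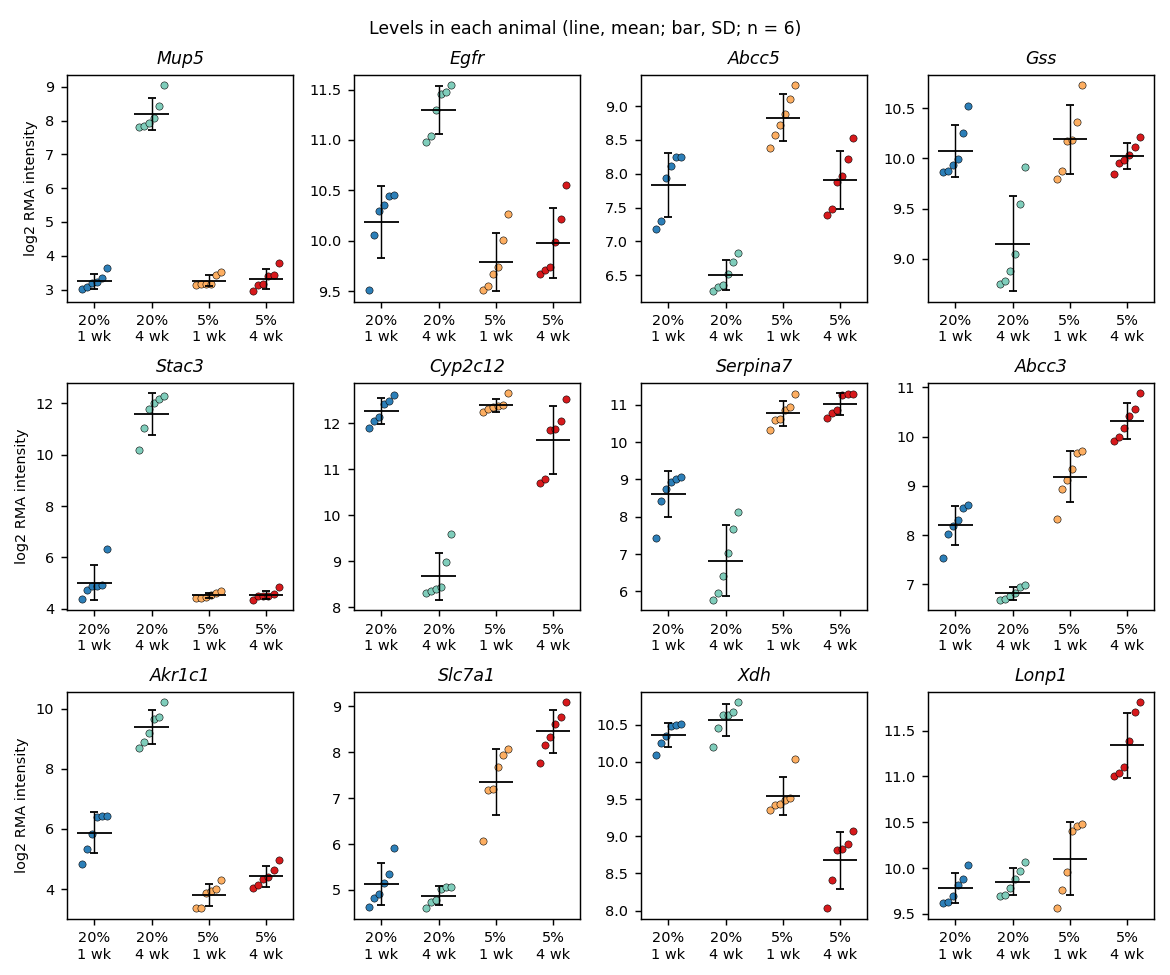
Log2 RMA intensity (y axis) of 12 genes in each rat of the 4 groups (x axis), with the mean (line) and SD (bar), n = 6. Mup5 in both low-protein groups sits at the early level near 3 while the 20% 4 week rats lie between 7.82 and 9.06. Slc7a1, Xdh and Lonp1 leave the early level. Xdh and Lonp1 are held within 1.5-fold with time on 20% protein, and Slc7a1 is not settled there (-0.25, interval -0.80 to 0.30).

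Several genes with the largest rises could not be placed. Stac3, named for a muscle adaptor protein, was at 10.16 to 12.28 in the older well-fed rats and at 4.35 to 4.84 after 4 weeks on 5% protein. The early rats lay at 4.39 to 6.32, and the high value was rat 77, with the next at 4.91. The difference of -0.47 (interval -1.06 to 0.11) was too wide to bound. Dhrs7l1, named as a dehydrogenase, spread from 3.15 to 7.8 in the early rats, and Rup2, a urinary protein, from 5.47 to 11.85. Their differences were -0.53 (interval -1.62 to 0.57) and -1.25 (interval -3.16 to 0.65). In Dhrs7l1 and Rup2 the early rats thus spread over several log2 units, while in Stac3 all but rat 77 lay close together.

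Cyp2c12, the female-type P450 that male livers shut down, was still high after 4 weeks on 5% protein. It lay at 11.89 to 12.61 in the early rats, at 10.7 to 12.53 in the low-protein rats and at 8.3 to 9.59 in the older well-fed rats. The groups compared overlapped, and their difference of -0.63 ± 0.25 missed the threshold (adjusted p = 0.0825). It passed without rat 59, at -0.81 (adjusted p = 0.0199). The comparisons with separate sets of early rats also leave out rat 59. There it passed against rats 77 to 79, at -0.89 (adjusted p = 0.0337), but not against rats 51 to 53, at -0.72. With rat 59 kept, Cyp2c12 did not pass against rats 77 to 79. Over the 26 alternative settings of the processing its difference ran from -0.81 to 0.20, so its sign was not the same in all. Cyp2c12 fell by 3.59 with time on 20% protein, and the low-protein rats were 2.96 above the older well-fed rats (adjusted p = 8.27e-09). H19, an imprinted fetal RNA, had a median of 11.23 in the early rats, 10.57 in the low-protein rats and 6.73 in the older well-fed rats, with a difference of -1.02 (interval -2.41 to 0.37).

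A further set moved away from the early level against the direction of time. Serpina7, thyroxine-binding globulin, which falls after weaning in the rat, lay at 7.43 to 9.06 early, at 10.64 to 11.29 after 4 weeks on 5% protein and at 5.77 to 8.11 after 4 weeks on 20%. The groups compared did not overlap, and the difference was 2.42 ± 0.32 (adjusted p = 1.06e-05). Abcc3, an exporter of bile acids and conjugates at the blood side of the hepatocyte, was higher by 2.11 ± 0.20 (adjusted p = 1.42e-07) and fell by 1.39 with time. Enc1 and Cyfip2, both proteins tied to the actin cytoskeleton, were higher by 2.42 and 1.99 and fell by 0.99 and 1.10. Igfbp2, a fetal-type carrier of insulin-like growth factors, was higher by 0.96 (adjusted p = 0.0248), and this was lost without rats 26, 31 or 51, at 0.74, 0.84 and 0.79, and against rats 77 to 79, at 0.78.

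The reverse also occurred. Akr1c1, an aldo-keto reductase that rises by 3.52 with time, lay at 4.85 to 6.44 early, at 4.03 to 4.98 after 4 weeks on 5% protein and at 8.69 to 10.23 after 4 weeks on 20%. The difference was -1.46 ± 0.27 (adjusted p = 0.000391), with 1 early rat inside the low-protein range. Slc25a48, a mitochondrial carrier, was lower by 1.90 ± 0.19 with no overlap, Marveld1 by 1.71 ± 0.25 and Sez6 by 1.40 ± 0.43. The Sez6 call (adjusted p = 0.0204) was lost without rats 23, 32 or 51, at -1.27, -1.24 and -0.97. Sez6 was at -2.29 against rats 51 to 53, and at -0.57 against rats 77 to 79, not called (adjusted p = 0.44). For Akr1c1 these differences were -1.92 and -0.84, both called.

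Among the genes that had moved in the direction of time was Hsd3b5. This male-specific steroid reductase had a median of 6.87 early (range 3.99 to 9.11), 9.44 after 4 weeks on 5% protein (8.79 to 10.28) and 12.08 after 4 weeks on 20%. After 1 week on 5% protein it was at 3.92 to 4.75. The difference between the groups compared was 2.55 ± 0.56 (adjusted p = 0.00173), with an overlap. Abcd2, a peroxisomal importer of very long fatty acids, fell by 3.32 with time and was 1.17 lower in the low-protein rats (adjusted p = 0.0371). That call was lost without any 1 of rats 22, 23, 31, 32, 52, 77, 78 and 79, and the difference was -0.59 against rats 51 to 53 and -1.85 against rats 77 to 79.

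Turning to genes that left the early level, the 1364 called genes of at least 1.5-fold were split by what they do with time on 20% protein. Of them 670 were held within 1.5-fold there, 300 higher and 370 lower in the low-protein rats. Another 52 moved the same way with time, 42 the opposite way, and 600 were not settled. Of the 670, 459 showed no overlap between the groups compared and 654 differed from the 20% 4 week rats as well, both of which the choice of these genes largely fixes. At 1 week on 5% protein 159 of them were called and 307 were within 1.5-fold of the early level.

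The members with the largest rises among these steady genes were Tafa1, a secreted chemokine-like protein, Kcnt2, a sodium-activated potassium channel, App, the amyloid precursor protein, Dzip1, a cilium protein, and Rbm3, a cold-induced RNA-binding protein. Tafa1 lay at 4.96 to 5.26 early and at 6.73 to 8.01 in the low-protein rats (2.30 ± 0.22, adjusted p = 1.67e-07). App lay at 9.62 to 10.02 and 11.32 to 12 (1.82 ± 0.17). In both genes the 6 and 6 rats were well apart, and 1 week on 5% protein gave values in between, with medians of 6.09 and 10.64. Among the falls, Xdh, the xanthine dehydrogenase of purine breakdown, lay at 10.1 to 10.51 early and at 8.03 to 9.07 in the low-protein rats (-1.69 ± 0.15, adjusted p = 2.89e-08). Cyp3a23-3a1, a drug-metabolising P450, was lower by 1.74 ± 0.26, Map2k6, a kinase of the p38 cascade, was 2.82-fold lower, and Npnt, a matrix protein, and Tent5a, a poly(A) polymerase, were lower by 1.47 and 1.44.

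ATF4 targets of the amino acid response formed the list with the highest median of the 27 examined. Of 37 measured members 24 were higher and none lower (1 lower at an unadjusted p below 0.05 in limma), with a median of 1.14 on the log2 scale beside 0.01 over all genes, and 20 did not overlap. The list's mean level lay at 7.68 to 8.46 in the early rats and at 8.92 to 9.48 in the low-protein rats. Against rats 51 to 53 the median was 0.78 with 21 higher, and against rats 77 to 79 it was 1.40 with 26 higher. With time on 20% protein none of the list rose and 1 fell. At 1 week on 5% protein 18 were already higher, with a median of 0.51.

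The pseudokinase Trib3, which feeds back on ATF4, had the largest difference of the list. It lay at 5.52 to 6.4 in the early rats (median 6.18), at 7.09 to 10.49 after 1 week on 5% protein and at 9.89 to 11.24 after 4 weeks on it (median 10.68). Every low-protein rat was above every early rat, and the difference was 4.60 ± 0.41 (adjusted p = 5.55e-08), a 24.2-fold higher level. Slc7a1, the importer of arginine and lysine, was higher by 3.33 ± 0.27 (adjusted p = 1.26e-08), from a range of 4.63 to 5.9 to one of 7.78 to 9.1. Fgf21, a fasting hormone of the liver, went from 5.74 to 8.34 early to 9.41 to 10.3 (2.66 ± 0.54). Asns, asparagine synthetase, was higher by 2.44 ± 0.48, but its early rats ran from 6.03 to 9.6 and overlapped the low-protein range of 9.27 to 10.16. The 2 high early rats were numbers 51 and 52, and against rats 51 to 53 the difference was 1.64, against rats 77 to 79 3.21.

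Other members show how broad the group was. Phgdh, the first enzyme of serine synthesis, was higher by 2.46, and the proline synthesis enzymes Pycr1 and Aldh18a1 by 2.24 and 2.19, as were the cystine importer Slc7a11, 8.02-fold, and the stress factors Atf3 and Ddit3 by 2.27 and 1.57. Vldlr, a lipoprotein receptor, was higher by 2.16 ± 0.19 and did not overlap. The next enzymes of serine synthesis, Psat1 and Psph, were at 1.14 and 0.18, Shmt2, which converts serine to glycine, at -0.06, and Slc38a2, a neutral amino acid importer, at 0.34, and none of these passed. Jdp2 was at -0.41 and Gpt2 at -0.25, also not called. Slc7a5, a large neutral amino acid exchanger, was the 1 member that falls with time on 20% protein, by 1.06, and it was higher by 1.23 in the low-protein rats.

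The promoters of these genes were searched for TGATGNAA, the core of the C/EBP-ATF response element that ATF4 reads, on both strands from 250 bases before to 50 after the gene start (RefSeq, GRCr8). TGATGNAA was in 11 of 33 promoters of the list (33.3%) and in 7 of the 21 whose genes were higher (33.3%), against 416 of 14047 over all genes (2.96%). Among all genes higher by at least 2-fold it was in 10 of 143 (6.99%), and among those lower by as much in 3 of 169 (1.78%). The list members Trib3, Slc7a1, Fgf21, Pycr1, Chac1 and Pck2 are among the 10 of the raised genes, so that share is not separate from the list's. The list was drawn up from known ATF4 targets, so its share is not independent of the element. The 7 promoters are shown because they hold the element and their genes were higher together. Each stretch runs 5′ to 3′ on the gene's strand, and the capitals mark the 8 letters, given as they read on the gene's strand where the match lies on the other.
Trib3: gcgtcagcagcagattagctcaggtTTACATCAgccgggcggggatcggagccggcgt
Slc7a1: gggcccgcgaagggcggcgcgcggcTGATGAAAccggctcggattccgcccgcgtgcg
Fgf21: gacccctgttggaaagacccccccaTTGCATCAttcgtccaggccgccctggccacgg
Pycr1: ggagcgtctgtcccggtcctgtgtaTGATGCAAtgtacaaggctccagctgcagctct
Chac1: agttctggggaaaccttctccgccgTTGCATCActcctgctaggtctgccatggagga
Pck2: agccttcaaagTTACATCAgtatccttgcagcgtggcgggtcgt
Slc1a4: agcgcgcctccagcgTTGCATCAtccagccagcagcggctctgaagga

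These stretches are chr3:161275522-161275579 for Trib3 on the minus strand, chr12:11664433-11664490 for Slc7a1 on the plus strand and chr1:105221487-105221544 for Fgf21 on the minus strand. Pycr1 is at chr10:106420911-106420968 (minus), Chac1 at chr3:126795939-126795996 (plus), Pck2 at chr15:32997603-32997646 (plus) and Slc1a4 at chr14:98761765-98761812 (minus). Their genes' differences ran from 0.69 for Slc1a4, an exchanger of neutral amino acids, to 4.60 for Trib3. Chac1, which degrades glutathione, and Pck2, the mitochondrial enzyme of gluconeogenesis, were higher by 1.32 and 1.23. Holding the letters did not go with a call in every member: Herpud1, Jdp2, Nars1 and Aars1 hold them too, at differences of 0.02, -0.41, 0.29 and 0.34, none of which passed. The letters were not in the windows of Asns and Ddit3, both known ATF4 targets, which says nothing of whether ATF4 acts on them.

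Growth arrest and p53 targets held some of the largest single rises. Of 27 measured members 10 were higher and 2 lower, with a median of 0.15, so the list as a whole moved little. The lower calls numbered 1 without rats 26, 31, 51, 52, 53 or 59. Unc5b, a netrin receptor and p53 target, had the largest rise of all genes: it lay at 4.89 to 5.75 early, at 6.42 to 9.75 after 1 week on 5% protein and at 9.72 to 10.64 after 4 weeks on it (4.89 ± 0.41, adjusted p = 2.0e-08). Cdkn1a, the cell cycle inhibitor p21, went from 5.91 to 7.33 early to 8.37 to 10.62 (2.47 ± 0.52, adjusted p = 0.00125), and Gadd45a was higher by 1.26. Neither overlapped between the groups. Sesn3, a stress-induced brake on mTORC1, was lower by 0.61 (adjusted p = 0.0157), a call lost against rats 51 to 53.

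NRF2 targets, the genes of glutathione and quinone handling, were higher in 9 of 23 members and lower in none (2 lower at an unadjusted p below 0.05), with a median of 0.32. Without any 1 of rats 52, 53, 77, 78 or 79, 1 member was called lower. Abcc3 and Slc7a11 are named above, and the others include Akr7a3, an aflatoxin aldehyde reductase, at 1.96, and Nqo1, a quinone reductase, at 1.31. Gsta3, a glutathione transferase, was higher by 1.33 while falling by 3.25 with time on 20% protein. Gclc and Gclm, which make the precursor of glutathione, were at -0.34 and -0.30 and not called. Against rats 51 to 53 and rats 77 to 79 the medians were 0.46 and 0.30.

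The endoplasmic reticulum and heat shock lists had no single direction, and their medians turned with the early rats used. Of 30 unfolded protein response genes 4 were higher and 6 lower (median -0.18), but against rats 51 to 53 the median was -0.43 with 16 lower, and against rats 77 to 79 it was 0.22 with 6 higher. The sensors Ern1, Atf6 and Eif2ak3 were higher by 1.04, 0.63 and 0.41, and Ern1 did not overlap (8.58 to 9.2 early, 9.72 to 10.16 low-protein). Chaperones of the same compartment were lower or not called: Sdf2l1 at -1.22, Pdia4 at -0.75 and Hspa5, the main luminal chaperone, at -0.21. Pdia4 was at -1.19 against rats 51 to 53 and at -0.29, not called, against rats 77 to 79. With all 6 low-protein rats kept, it was called against rats 77 to 79 as well (limma, adjusted p at most 0.0486). That fit also leaves rats 51 to 53 out of the estimate of spread. For 24 heat shock chaperones the medians against the 2 sets of early rats were -0.40 and 0.35. Of the 24, Hspa9, the mitochondrial member, and Hspb1, a small chaperone, were higher, by 0.74 and 1.39, and Hspa4l and Dnaja1 were lower, by 0.97 and 0.47. Hspa4l was at -0.58 and not called against rats 51 to 53 and at -1.57 against rats 77 to 79. The higher calls numbered 1 without rats 31, 32, 59, 77, 78 or 79. The lower calls numbered 1 without rats 26, 31, 32, 51, 52 or 53 and 4 without rats 77 or 79.

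**Figure D3:**
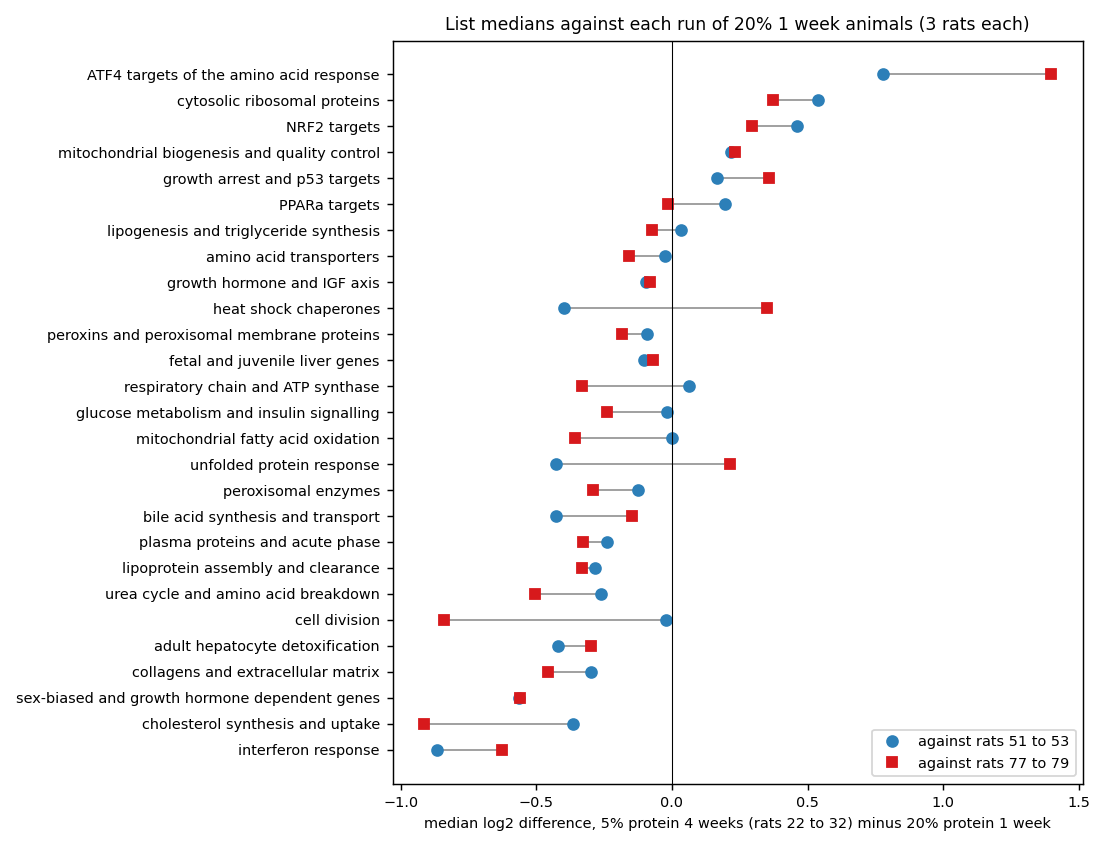
Median log2 difference (x axis) of each gene list (y axis) between 5% protein 4 week rats 22 to 32 and each set of 3 rats on 20% protein for 1 week. Ribosomal proteins and ATF4 targets sit above 0 and interferon genes below 0 against both sets, while heat shock, unfolded protein response and respiratory chain lists change side.

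Ribosomal protein genes were higher almost as a block. Of 36 measured 34 were higher and none lower, also at an unadjusted p, with a median of 0.47, and 28 did not overlap. The mean of the list lay at 11.14 to 11.29 in the early rats, 10.96 to 11.19 in the older well-fed rats, 11.38 to 11.63 after 1 week on 5% protein and 11.57 to 11.82 after 4 weeks on it. Both low-protein groups were thus above both well-fed groups in every rat. Rplp0, a stalk protein of the large subunit, went from 11.65 to 11.75 early to 12.24 to 12.41 (0.62 ± 0.06, adjusted p = 5.55e-08). Rps12 had the largest difference, 1.05, and Rps29 and Rpl10 were at 0.10 and 0.20 and not called. Each single difference was small, and 15 of the 36 were also within 1.5-fold by the interval rule. Ribosomal protein genes have many processed pseudogenes, so probe sets may be shared.

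Mitochondrial genes were examined as quality control and as respiratory chain, and the lists were not tested against each other. Of 34 genes of biogenesis and quality control 10 were higher and 2 lower (median 0.21), led by Lonp1, the matrix protease, at 9.62 to 10.04 early and 11 to 11.82 in the low-protein rats (1.56 ± 0.16, adjusted p = 2.69e-07). At 1 week on 5% protein Lonp1 lay at 9.56 to 10.49 and did not pass (0.32). Hspa9 is in this list too, and Fis1, a fission adaptor, was lower by 0.50, at -0.31 and not called against rats 51 to 53 and at -0.84 against rats 77 to 79. Of 72 respiratory chain and ATP synthase genes none was higher and 10 were lower (1 higher and 19 lower at an unadjusted p below 0.05), a share near the 11.2% of all genes, with 60 within 1.5-fold and a median of -0.12. That median was 0.06 against rats 51 to 53 and -0.33, with 38 lower, against rats 77 to 79, and without rat 53 the lower calls numbered 17. Without rat 23, 3 members were called higher. Ppargc1a, the coactivator of mitochondrial biogenesis, was at 0.51 and not called (adjusted p = 0.224), at 1.10 (adjusted p = 0.00784) against rats 51 to 53 and -0.14 against rats 77 to 79.

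**Figure D4:**
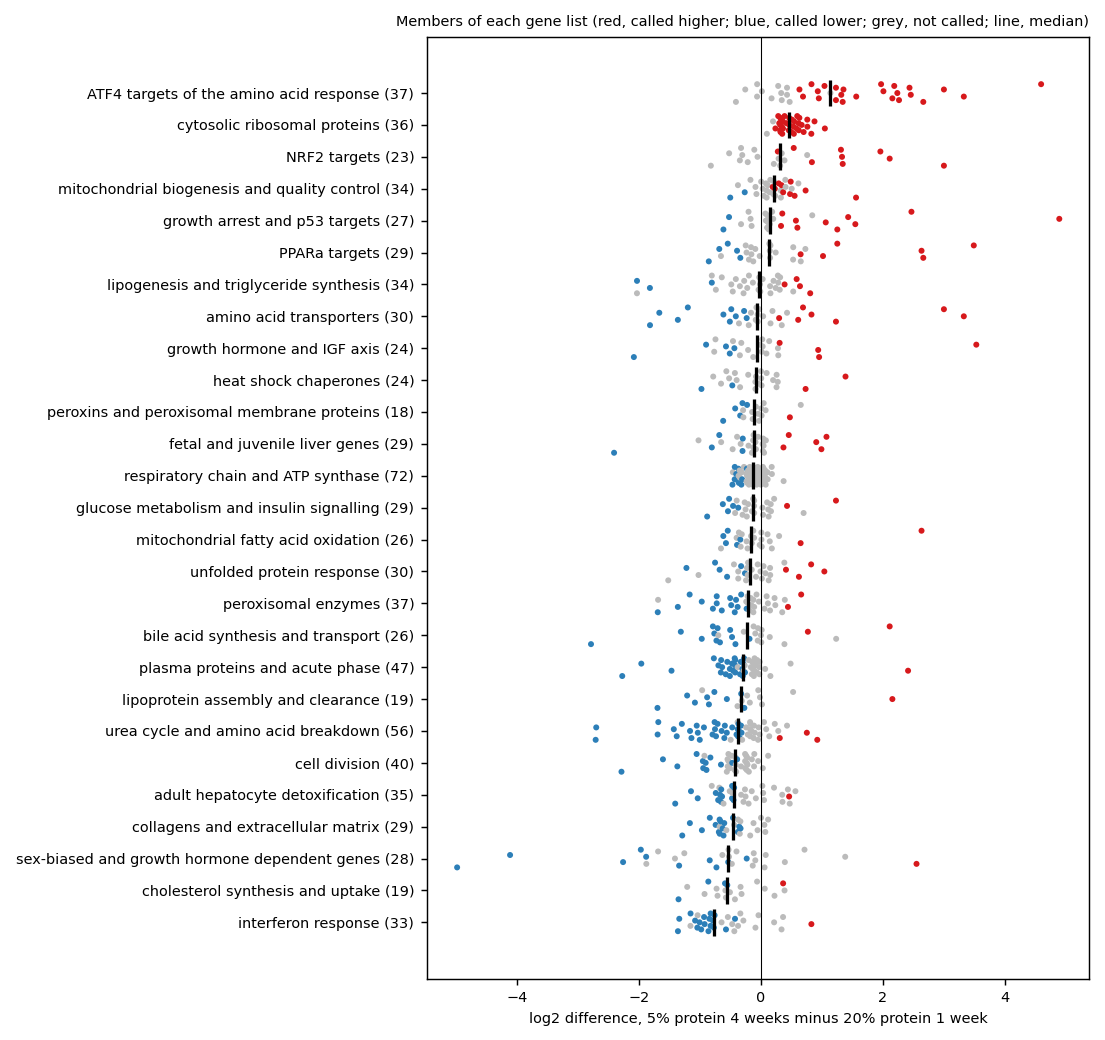
Log2 difference (x axis) of every measured member of each gene list (y axis, with the number measured) between 5% protein at 4 weeks and 20% protein at 1 week, with the list's median as a bar. ATF4 targets have the highest median, 1.14, and interferon response genes the lowest, -0.77.

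Amino acid breakdown was lower. Of 56 genes of the urea cycle and amino acid breakdown 31 were lower and 3 higher, with a median of -0.37, and 16 did not overlap. Oat, ornithine aminotransferase, went from 8.53 to 11.19 early to 6.42 to 7.94 (-2.71 ± 0.36, adjusted p = 9.64e-06), and Sds, serine dehydratase, from 6.75 to 8.2 to 4.02 to 4.87 (-2.70 ± 0.53). Both sets of early rats lay above the low-protein rats in these genes, by 2.04 and 3.66 for Oat. Of the urea cycle itself, Cps1, its entry enzyme, was lower by 0.64, Otc by 0.73, Ass1 by 0.56 and Arg1 by 0.93, while Asl was at -0.04. Cbs, which starts the breakdown of homocysteine to cysteine, had the smallest p of the list and was lower by 1.68. Tat, tyrosine aminotransferase, was higher by 0.93 (adjusted p = 0.00598), and against rats 51 to 53 it was at 0.51 and not called. Without rat 53, or without rat 78, 1 member rather than 3 was higher. With time on 20% protein none of the list fell, and 22 were lower against rats 51 to 53 and 33 against rats 77 to 79.

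Transport of amino acids did not move in one direction. Of 30 transporters 7 were higher and 10 lower (median -0.06). The higher ones were led by Slc7a1 and Slc7a11, and the lower ones by Slc16a10, an aromatic amino acid transporter, at -1.82 and Slc1a2, a glutamate importer, at -1.66. The counts were 3 higher and 8 lower against rats 51 to 53, and 5 higher and 9 lower against rats 77 to 79.

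Secreted proteins were lower in part. Of 47 plasma and acute phase proteins 25 were lower and 1, Serpina7, higher, with a median of -0.28. Against rats 51 to 53, 14 were lower, and against rats 77 to 79, 23. C6, a complement component, went from 10.44 to 11.25 early to 8.69 to 9.37 (-1.96 ± 0.15, adjusted p = 5.98e-09), and Orm1, an acute phase glycoprotein, from 9.46 to 10.96 to 7.3 to 9.38 (-2.27 ± 0.35). These 2 genes left the early range in all 6 rats. Albumin stayed: Alb lay at 13.73 to 13.81 early and 13.5 to 13.75 in the low-protein rats, a difference of -0.10 (interval -0.22 to 0.01). A saturated probe set would hide a change at such a level, and this could not be checked from the deposited values. Transferrin and transthyretin were at -0.06 and -0.15.

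Lipoprotein genes followed the secreted proteins in direction, with 9 of 19 lower and 1 higher (median -0.32). The lower calls numbered 5 against rats 51 to 53 and 8 against rats 77 to 79. Lipc, hepatic lipase, was lower by 0.88 ± 0.12 with no overlap, Apof by 1.69 and Apom by 1.21, while Apob and Apoe were at 0.02 and -0.04. The higher member was Vldlr. Of 26 bile acid genes 12 were lower and 2 higher (median -0.23). Abcg5, which exports sterols into bile, was lower by 2.78 ± 0.51 and Slc27a5, which activates bile acids for conjugation, by 1.31. Cyp7a1, the rate-limiting enzyme of bile acid synthesis, was spread from 6.01 to 12.67 in the early rats, and its difference of 1.24 was -1.18 against rats 51 to 53 and 3.52 against rats 77 to 79.

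Drug-handling genes of the adult hepatocyte were lower in 13 of 35 members and higher in 1 (median -0.44). They include Cyp2t1 at -1.40, Cyp1a1 at -1.14, Por, the electron donor of the microsomal P450s, at -1.03 and the nuclear receptor Nr1i2 at -0.65. Cyp2e1 and Cyp3a9 were at -0.26 and -0.08 and not called. The list's mean was 9.99 to 10.33 early and 9.51 to 10.18 in the low-protein rats, so the groups overlapped. The member called higher, Sult1b1, was lost without rats 22 or 53 and against rats 51 to 53.

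Sex-biased and growth hormone dependent genes were lower in 10 of 28 members and higher in 1, Hsd3b5, with a median of -0.53 (background 11.2% lower). The median was -0.56 against both sets of early rats, with 8 lower in each. Car3, carbonic anhydrase 3, a male-biased gene, went from 11.12 to 13.07 early to 5.34 to 10.01 (-4.98 ± 0.53, adjusted p = 5.21e-07), the largest fall of all genes. The lowest early value was that of rat 53, with the next at 12.65. Cyp2c11, the male-specific P450, lay at 11.92 to 12.31 in 5 early rats and at 7.04 in rat 53, while the low-protein rats lay at 5.04 to 8.07. The difference was -4.11 ± 0.74 (adjusted p = 0.000277), and against rats 77 to 79, which hold no such animal, it was -4.80. Median Car3 was 12.78 after 1 week and 12.96 after 4 weeks on 20% protein. For Cyp2c11 these medians were 12.11 and 12.98, and every early rat lay below every older well-fed rat, although the difference with time was not called (1.62, adjusted p = 0.269). The low-protein rats lay below all early rats in Car3, and below all but rat 53 in Cyp2c11. Car3 was at 8.7 to 10.8 and Cyp2c11 at 6.99 to 10.78 after 1 week on 5% protein. Cyp2c7, a female-predominant P450, was lower by 1.97 (adjusted p = 0.0168), a call lost without rat 32 and against either set of early rats alone. Of the 8 list members that change with time by at least 1.5-fold, 1 stayed, 1 moved the same way and 6 were not settled. TTCNNNGAA, the letters read by the growth hormone factor STAT5, was searched in the same promoter windows on both strands, and a match may overlap one of TGATGNAA. It was in 3 of 23 promoters of this list (13%), against 1093 of 14047 over all genes (7.78%). Among the rising and falling genes that stayed it was in 0 of 23 and 2 of 23 (8.7%).

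The growth hormone and insulin-like growth factor axis held the carriers at both ends. Igfbp1, a carrier induced by low insulin and amino acid shortage, went from 6.94 to 11.15 early to 12.42 to 12.71 (3.53 ± 0.64, adjusted p = 0.000291), a difference of 4.73 against rats 51 to 53 and 2.38 against rats 77 to 79. Igf1, the main growth signal from the liver, went from 12.4 to 12.72 to 11.88 to 12.3 (-0.51 ± 0.08, adjusted p = 3.84e-05), and Igfals, its stabilising partner in plasma, was lower by 2.08. All 3 were without overlap, and the low-protein levels after 1 and 4 weeks were alike in median: 12.28 and 12.56 for Igfbp1 and 12.13 and 12.11 for Igf1. Ghr, the growth hormone receptor, was higher by 0.31 (adjusted p = 0.0243), a call lost without rats 22, 52, 59 or 78 and against either set of early rats alone, and it rose by 0.52 with time. Igf2r, the clearing receptor for Igf2, was higher by 0.94. Of the 24 genes 4 were higher and 5 lower, with a median of -0.07.

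Fetal and juvenile genes did not leave the early level in one direction. Of 29 measured 5 were higher and 5 lower, with a median of -0.12 and 15 within 1.5-fold. Against the 20% 4 week rats 9 of the 29 were higher and 5 lower, beside 13.4% and 12.4% of all genes. Afp, alpha-fetoprotein, lay at 6.71 to 10.89 in the early rats and at 5.49 to 6.17 in the low-protein rats (-2.40 ± 0.54, adjusted p = 0.00224), below every early rat. Against rats 51 to 53 this was -1.01 and not called, and against rats 77 to 79 it was -3.73. With rats 51 to 53 as the only early rats and all 6 low-protein rats kept, Afp was called. Its adjusted p was at most 0.0244 (limma) in all settings. Igf2 was at 4.15 to 4.55 beside 4.3 to 4.75 early, a difference of -0.12 (interval -0.32 to 0.07). Grb10, an adaptor that restrains insulin signalling, was higher by 1.08, with rat 53 the highest early rat at 6.21 and the next at 5.8, and Epcam by 0.99, a call lost without rats 31, 32, 51, 52 or 53 and against rats 77 to 79 (0.23). The higher calls numbered 1 without rat 32, 2 without rat 31 and 3 without rats 51, 53, 77, 78 or 79, and the lower calls 3 without rat 53.

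Cell division genes were lower in 12 of 40 members and higher in none, also at an unadjusted p, with a median of -0.42. The early rats differed among themselves: against rats 51 to 53 the median was -0.02 with 3 lower, and against rats 77 to 79 it was -0.84 with 26 lower. Mki67, a marker of cycling cells, lay at 6.45 to 8.96 early and 6.33 to 7.16 in the low-protein rats and missed the threshold (-0.92, adjusted p = 0.0512). It passed without rats 23, 51 or 52, at -1.01, -1.17 and -1.13. Mki67 was at -0.33 against rats 51 to 53, and against rats 77 to 79 at -1.52 (adjusted p = 0.00552). Cdk1 was at -0.53, at 0.13 and -1.04 against the same sets, and passed without rats 51 or 52. Cdc25b, a phosphatase that starts mitosis, and Rrm2, which makes deoxynucleotides, were lower by 2.28 and 1.60.

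Peroxisomes are central to lipid and purine breakdown in rat liver. Of 37 peroxisomal enzymes 15 were lower and 2 higher (median -0.21), with 5 lower against rats 51 to 53 and 13 against rats 77 to 79. Xdh is described above. Hacl1 and Phyh, of the alpha-oxidation of branched fatty acids, were lower by 1.36 and 0.72, and Acox2, of bile acid side chain shortening, by 0.97 ± 0.18 with no overlap. Cat, catalase, the main hydrogen peroxide scavenger of peroxisomes, stayed at 13.03 to 13.3 early and 12.88 to 13.19 in the low-protein rats (interval -0.24 to 0.02). Among the 2 higher, Nudt7 was lost in 9 of the animals left out in turn and against rats 51 to 53. Of 18 peroxins and membrane proteins 14 were within 1.5-fold, 5 were lower, by 0.22 to 0.62, and Pex14 was higher by 0.48. The 5 lower calls became 3 without rats 23, 31, 77 or 79.

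PPARa targets, which the fasted liver induces, split by gene. Of 29 measured 6 were higher and 5 lower (median 0.14). Acot1, a thioesterase, went from 4.29 to 7.8 early to 6.19 to 11.46 (3.49 ± 0.68, adjusted p = 0.000585) with an overlap, and Cpt1b was higher by 2.64 and Pdk4 was 2.39-fold higher. Fabp1, a fatty acid carrier, Acadm and Acadvl were lower by 0.68, 0.33 and 0.39. In mitochondrial fatty acid oxidation 2 of 26 were higher and 5 lower, with medians of 0.00 against rats 51 to 53 and -0.36 against rats 77 to 79, and 3 lower without any 1 of rats 23, 31, 77, 78 or 79.

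Lipid and glucose synthesis showed little common movement. Of 34 lipogenic genes 4 were higher and 3 lower (median -0.03), the lower ones being Thrsp, a regulator of lipogenesis, at -2.03, Elovl2 at -1.82 and Scd2 at -0.80. Elovl2 was at -1.23 against rats 51 to 53 and -2.44 against rats 77 to 79. Without rat 26, or without rat 53, 5 were lower. Scd, the main desaturase, was at -0.74 and not called, with rat 53 low at 11.08, and passed without that rat at -1.07 (adjusted p = 0.0128). It was at -0.36 against rats 51 to 53 and against rats 77 to 79 at -1.44 (adjusted p = 0.0115). Of 19 cholesterol genes 4 were lower and 1 higher (median -0.55). None was lower against rats 51 to 53 and 9 were against rats 77 to 79. Of 29 genes of glucose metabolism and insulin signalling 2 were higher, Pck2 and the insulin receptor Insr at 0.43, and 6 lower, led by Pik3r1, a subunit of the insulin-stimulated lipid kinase, at -0.88, or -1.29 and -0.53 against the separate sets of early rats.

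The labelled tissue was checked by its markers, and 11 hepatocyte markers lay at a mean of 12.79 to 12.92 in the early rats and 12.53 to 12.86 in the low-protein rats. Some other cell types moved. All 11 measured Kupffer cell markers were lower (median -0.85), and 9 of them did not overlap. Kupffer cells are the resident macrophages of the liver. The mean of these markers lay at 9.14 to 9.71 in the early rats and at 8.42 to 8.70 in the low-protein rats, with the older well-fed rats at 8.96 to 9.72. Clec4f, their lectin, went from 9.9 to 10.34 to 8.86 to 9.5 (-0.87 ± 0.14, adjusted p = 0.000123), and Marco was lower by 1.36 and Vsig4 by 0.90. In tissue RNA fewer cells of a type and less RNA per cell cannot be told apart. Against rats 51 to 53, 7 of the 11 were lower, and against rats 77 to 79, 10.

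**Figure D5:**
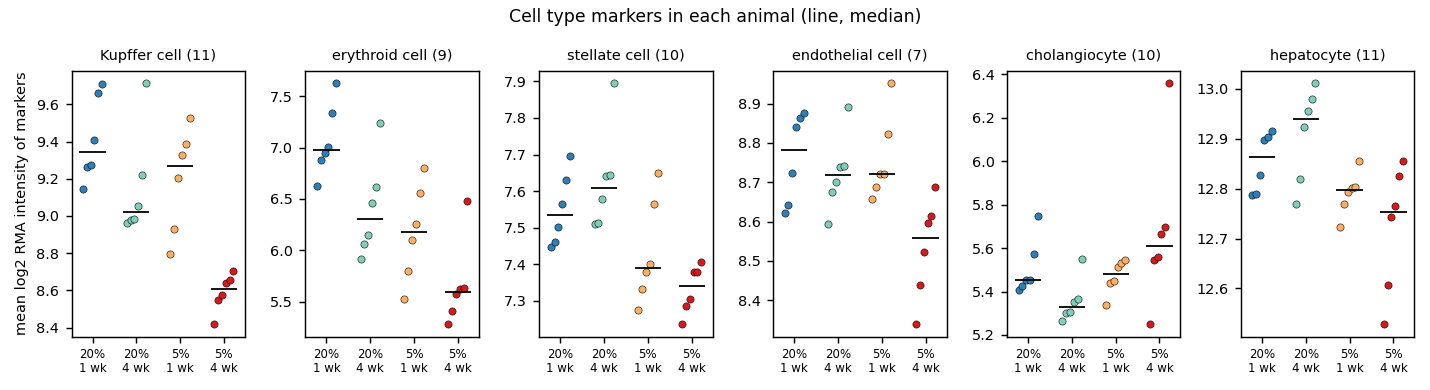
Mean log2 RMA intensity (y axis) of the markers of 6 cell types in each rat of the 4 groups (x axis), with the group median as a line and the number of markers in the panel title. The 6 rats on 5% protein for 4 weeks lie at 8.42 to 8.70 in Kupffer cell markers, below all other rats, and at 5.28 to 6.48 in erythroid markers, below the 6.62 to 7.63 of the early rats.

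Erythroid markers were lower in 6 of 9 (median -1.88), with a mean of 6.62 to 7.63 early and 5.28 to 6.48 in the low-protein rats. Alas2, of haem synthesis in red cell precursors, was lower by 2.82 and Hbb, a globin, by 2.56, from 12.14 to 13.16 to 8.97 to 12.05. These markers were also lower after 1 week on 5% protein, in 4 of 9, and with time on 20% protein 1 of 9 was lower, with a list median of -0.66. Gata1, Klf1 and Rhag, also of this lineage, were within 1.5-fold. Endothelial markers were lower in 3 of 7 (median -0.31), led by Cdh5 at -0.59. Stellate cell markers were lower in 1 of 10, a share near the 11.2% of all genes. That member was Rgs5 at -0.82, which was -0.59 and not called against rats 51 to 53. The endothelial and stellate means were 8.62 to 8.88 against 8.34 to 8.69 and 7.45 to 7.69 against 7.24 to 7.41.

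Markers of other cells gave few calls: 1 of 11 for recruited monocytes, T and NK cells each, 1 of 6 for B cells, none of 10 for neutrophils, 7 for adipocytes and 5 for skeletal muscle. At an unadjusted p below 0.05 (limma) these last 3 lists gave 0, 1 and 0. Of 10 cholangiocyte markers 2 were higher and 1 lower (median 0.18), with means of 5.41 to 5.75 early and 5.25 to 6.36 in the low-protein rats, and neither higher call was kept without rats 31, 32, 51 or 53. The 7 pancreas markers gave 1 higher and 1 lower.

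Interferon response genes were lower in 18 of 33 members and higher in 1, Ifit2 (0.83), with the lowest median of the 27 gene lists, -0.77. Stat2, a transducer of interferon signals, went from 9.7 to 10.26 early to 8.56 to 9.36 (-0.92 ± 0.13, adjusted p = 2.17e-05). Usp18, Isg15 and Mx1, antiviral effectors and their modifier, were lower by 1.36, 1.34 and 1.15, while Ifit3 and Cxcl10 were at -0.04 and 0.34. The list's mean overlapped between the groups, at 7.45 to 8.39 early and 6.82 to 7.70 in the low-protein rats. Against rats 51 to 53 17 were lower and against rats 77 to 79 11. With time on 20% protein none of the 33 was called, and at 1 week on 5% protein 2 were lower. Collagens and other matrix genes were lower in 16 of 29 and higher in none, also at an unadjusted p (median -0.46). Nid1, a basement membrane linker, went from 8.97 to 9.77 early to 8.22 to 8.56 (-0.96 ± 0.10, adjusted p = 6.67e-07), and Dpt, Col14a1 and Sparc were lower by 1.29, 1.16 and 0.84. Col1a1 was at -0.67 and not called. Of the 29, 6 were lower against rats 51 to 53 and 14 against rats 77 to 79. Lower Kupffer, endothelial and stellate marker means went with both lists, and their part in them was not tested.

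The remaining genes with the largest differences and no overlap were outside these lists. Gucy2c, a guanylate cyclase known as the intestinal enterotoxin receptor, went from 4.72 to 5.26 early to 7.1 to 9.89 (3.64 ± 0.31, adjusted p = 1.87e-08), with 5.44 to 7.09 after 1 week on 5% protein. Niban1, a stress-induced regulator of translation, was higher by 3.42, C1h11orf86 by 3.26, and Abo3, named as a blood group transferase, was 10.6-fold higher. Among the falls, Spink1l, named as a trypsin inhibitor, went from 8.82 to 10.79 to 3.96 to 7.53 (-4.16 ± 0.50, adjusted p = 3.17e-06), with rat 53 lowest of the early rats. Gfra1, a receptor for glial cell line-derived factors, went from 7.98 to 9.43 to 5.33 to 6.43 (-2.91 ± 0.22, adjusted p = 5.98e-09). Nat8, an acetyltransferase, and Aspg, an asparaginase, were lower by 2.89 and 2.67, and the Nat8 fall was -4.31 against rats 51 to 53 and -1.52, not called, against rats 77 to 79. C1h11orf86 was at 4.04 and 2.21 against these sets. In each of these 8 genes the median after 1 week on 5% protein lay between those of the groups compared.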

How the data were processed

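Liver RNA of 24 male Wistar rats was labelled as cDNA with the Affymetrix WT Sense Target kit, per the labels' protocols. The authors deposited RMA intensity values on the unlogged scale, per the submitters' processing notes, which give no RMA version. RMA fits probes jointly across arrays and compresses low and very high intensities. The log2 of each value was taken. Of 29214 probe sets, 18644 name 1 gene symbol, 962 several and 9608 none, and each gene was represented by its probe set with the highest mean, without reference to the groups. The 4 groups were fitted together with limma 3.58.1 (R 4.3.3), with Benjamini-Hochberg adjustment over 17245 genes. The procedure was tested on simulated data. No arrays held identical values. Array number limits precision: the median standard error of a log2 difference was 0.10.

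The genes named are 40 fixed by symbol (39 measured), the 8 largest rises and 8 largest falls without overlap, the 6 largest changes with time in each direction among genes that stayed, the 4 in each direction that moved the opposite way, the 5 largest rises and 5 largest falls among genes steady with time, and the member of each list with the smallest p in each direction. Other list members given as examples were picked after their values were seen. The members, lists and tests were chosen with earlier results of these data known. Promoters are RefSeq windows of GRCr8, and they play no part in the tests. Alternatives changed normalization, probe set choice, filters, the model, the early rats used, the interval bound and single rats left out.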

Additional observations from a re-analysis of the deposited data

Results flagged for a closer look

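Among 248 sets of 6 values examined, 17 had a highest or lowest rat that stood apart from the other 5 by Dixon's test at the 95% level, and chance gives about 1 in 20. Rat 53 of the 20% 1 week group was the lowest for 4 genes: Cyp2c11 at 7.04 (next 11.92), Car3 at 11.12 (next 12.65), Scd at 11.08 (next 12.76) and Spink1l at 8.82 (next 10.21). It was the highest for Grb10, at 6.21 (next 5.80). In the same group rat 77 was highest for Stac3, at 6.32, and Hspa4l, at 7.32, and lowest for Tff3, at 5.33. Rat 78 was highest for Tafa1, at 5.26, and Ifit2, at 7.85, and lowest for Cbs, at 9.80. Rat 52 was lowest for Rbm3, at 8.28, and rat 79 highest for Etfb, at 12.21. Among the rats on 5% protein for 4 weeks, rat 23 was lowest for Ppargc1a, at 7.33, and highest for Cdc25b, at 7.37. Rat 32 was lowest for Blk, at 5.19, and rat 59 highest for Prss1, at 4.43.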

How the results depend on the processing

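Of the 99 named genes called, 77 kept their direction and call in all 26 settings and 22 lost the call in at least 1. In the settings with rats 51 to 53 or 77 to 79 as the only early rats, all 6 low-protein rats were kept. Of the 25 not called, 7 passed in at least 1, and none of the 124 changed direction while called. Leaving out 1 rat gave 1357 to 1671 genes higher, 1661 to 1906 lower, 12902 to 13175 within 1.5-fold, 41 to 87 that stayed at the early level and 593 to 767 that left it while steady on 20% protein. The last 2 counts depended most on the interval bound: with the narrower bound tried 3 stayed and 131 left while steady, and with 2-fold 125 and 1134. With the narrower bound 7356 genes were within it, and with the 33.3% of genes at the lowest levels left out 7648 were within 1.5-fold. The number that stayed was 91 with array weights, 33 with well row as a random block, 148 and 85 with rats 51 to 53 or 77 to 79 as the only early rats, and 144 and 145 with time and diet measured against different early rats. With all 6 low-protein rats kept, the median of the respiratory chain list turned to 0.048 with rats 51 to 53 as the early rats. With rats 77 to 79 the unfolded protein response median turned to 0.209 and that of PPARa targets to -0.03. The cause of these changes was not tested, apart from the smaller number of genes and the narrower or wider bound. No paired analysis was possible because each animal number occurs in 1 group only. Levels near the array's floor or ceiling, which background signal and saturation set, limit what a fall or a rise can show.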
